A study of Homo sapiens with 9 samples.

Results

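The genes described here belong to families of which most keep chromatin silent: histone deacetylases and sirtuins, their corepressor scaffolds, the polycomb complexes PRC2 and PRC1, the DNA methylation and demethylation enzymes, and the methyltransferases of lysine 9 of histone H3 (H3K9). Not every gene does so. The TET enzymes remove DNA methylation, and some deacetylases and sirtuins act in the cytoplasm or in mitochondria. The genes are a list of 49 symbols written from known function, chosen with earlier results of these data known. All 49 were found among the 25382 genes of the deposited count table and passed the filter on low counts, as did 14731 genes in all. RNA was sequenced from 501mel, an established human melanoma line, 24 h after a DsiRNA was delivered by lipofection. DsiRNAs are synthetic duplexes that the cell's Dicer enzyme trims into guides for RNA silencing. The groups are cells given DsiRNA 13.6 against TBX3, cells given DsiRNA 13.8 against TBX3, and cells given the control DsiRNA NC1, with 3 biological replicates each and 9 libraries in all. All cells were the same line in the same medium and all were lipofected, and no untransfected library is among the 9. Levels are in CPM, the reads of a gene relative to the TMM-scaled total of the library, and are given for replicates 1, 2 and 3 of a group in that order. "Rose" and "fell" mean that a gene passed edgeR's quasi-likelihood test at 0.05 after Benjamini-Hochberg adjustment over all 14731 genes, and fold changes are log2 estimates ± SE.

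Silencing enzymes work in layers. Histone deacetylases remove acetyl groups from histone tails and are brought to genes by scaffolds such as NCOR1, SIN3A and RCOR1. PRC2 methylates lysine 27 of histone H3 and PRC1 ubiquitinates histone H2A, and together they hold developmental genes such as the HOX clusters off. DNA methyltransferases and H3K9 methyltransferases mark heterochromatin, and the maintenance enzyme DNMT1 acts as DNA is copied. TBX3 is a T-box transcription factor that mostly represses its targets, and HDAC1, HDAC2, HDAC3 and HDAC5 are among its reported partners.

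TBX3 mRNA stood at 46.4, 41.0 and 39.4 CPM with 13.6 and 36.1, 33.7 and 36.2 CPM with 13.8, against 88.6, 83.8 and 84.0 CPM in control. Library totals ran from 38105026 to 52272147 counted reads, and 2 libraries of a group correlated at 0.991 to 0.995 (Pearson, log2 CPM, across genes, which are not independent). The 49 genes took 0.293% to 0.303% of the reads with 13.6, 0.259% to 0.276% with 13.8 and 0.276% to 0.304% in control. The summed level of 8 melanocyte markers was 13845 to 15002.7 CPM with 13.6, 17386.9 to 18188.8 CPM with 13.8 and 13357.7 to 15376.3 CPM in control. Most of that sum was PMEL, at 6972.7 to 9038.6 CPM over the 9 libraries, and TYRP1, at 2643.6 to 8001 CPM. The sum therefore says little of MITF (362.9 to 925.1 CPM), TYR (365.8 to 819.5 CPM) or DCT (358.3 to 980.8 CPM). Of the other cell types, the 6 fibroblast markers summed to 4.56 to 5.33 CPM with 13.6, 15.6 to 19 CPM with 13.8 and 4.79 to 5.98 CPM in control. LUM had the most reads of the 6, with 2401 over all libraries, and COL1A1 came next with 766. Leukocyte and endothelial markers stayed at or below 2.05 CPM in sum in every library, and the 4 keratinocyte markers summed to 42.8 to 44.5 CPM with 13.6, 39.3 to 44.3 CPM with 13.8 and 41 to 46.2 CPM in control. Nearly all of that sum was KRT10, with 17526 reads, while KRT5 had 0 reads, KRT14 1 read and KRT1 4 reads over all libraries. The part of these marker levels in the results below was not tested.

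Per length, the 49 genes spanned a wide range in control cells, with a median of 8.04 CPM per kb of exon. The length is that of all annotated exons of a gene merged, and can exceed that of the transcript expressed. HDAC1, a class I deacetylase, had the highest level by this measure, at 67.7 ± 0.85 CPM per kb with 13.6, 82.7 ± 1.8 with 13.8 and 81.1 ± 3.5 in control (SD, n = 3). The H3K4 demethylase KDM1A and the PRC1 subunit PHC2 came next in control, at 53 ± 4.6 and 49.1 ± 3.3 CPM per kb, which do not differ beyond their spread. DNMT1, at 32.7 ± 3.8, and the PRC1 ubiquitin ligase RING1, at 32.6 ± 1.5, also did not differ beyond their spread there. The lowest levels per length in control were those of HDAC9, a class IIa deacetylase, at 0.165 ± 0.021, and of TET1, which oxidises methylated DNA, at 0.665 ± 0.13. By CPM alone HDAC2 stood above HDAC1 in control, at 205.3 ± 6.3 beside 172.3 ± 7.5, with merged exons of 10.15 kb beside 2.12 kb.

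**Figure D1:**
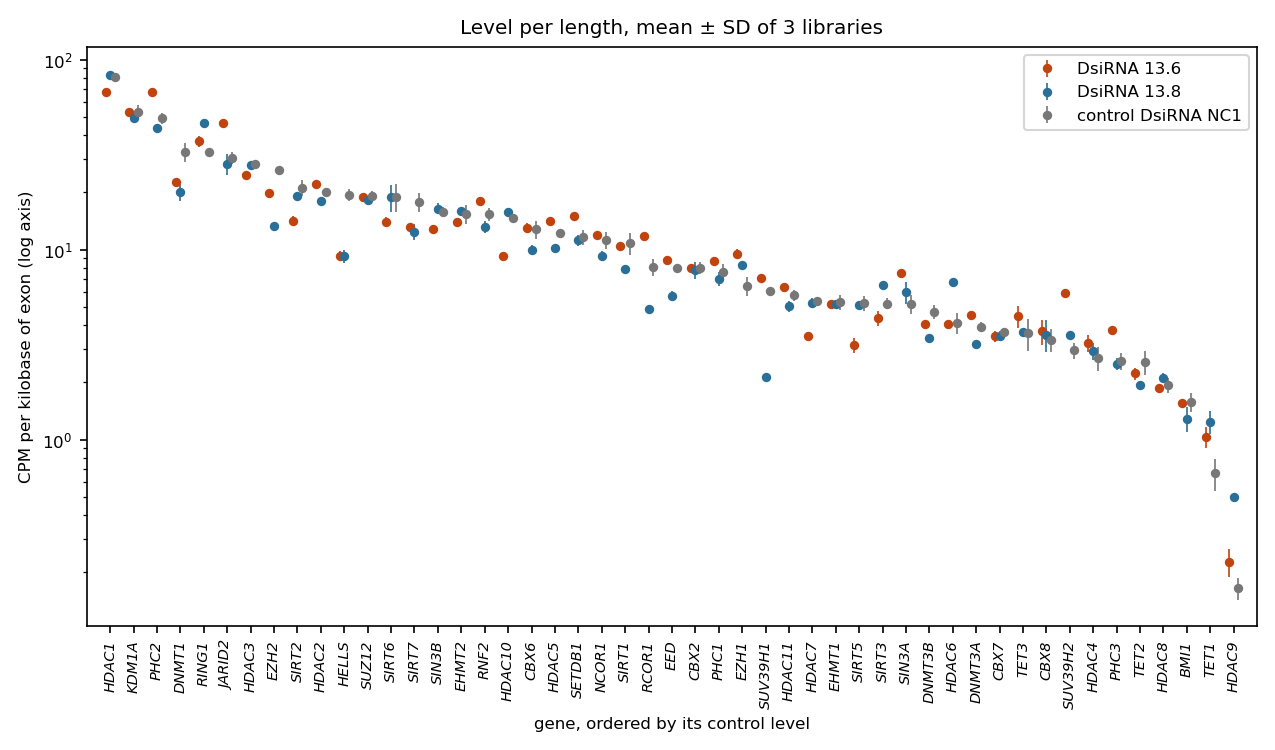
Level of each of the 49 genes per length, in CPM per kb of exon on a log axis, for cells given DsiRNA 13.6, DsiRNA 13.8 and control (points, means of 3 libraries; bars, SD). HDAC1 is highest and HDAC9 lowest in control, and the median gene stands at 8.04 CPM per kb there.

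As a group the genes did not move 1 way. With 13.6, 15 of the 49 rose, 14 fell and 20 stayed short of the threshold, so that 59.2% were called, beside 49.9% of all genes tested, and their median log2 change was 0.01, beside −0.01 for all genes. Of all genes tested, 24.9% rose and 25% fell with 13.6. With 13.8, 7 rose, 17 fell and 25 did not pass, so that 49% were called, beside 55.5% of all genes, and the median was −0.06, beside 0.01. Genes higher with 13.8 made up 27.5% of all genes tested and genes lower 27.9%. With the mean of both DsiRNAs against control, 11 rose and 13 fell, beside 50.2% of all genes called, 23.3% higher and 26.9% lower. The 2 DsiRNA comparisons share the control libraries, so the values below are given side by side for each.

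**Figure D2:**
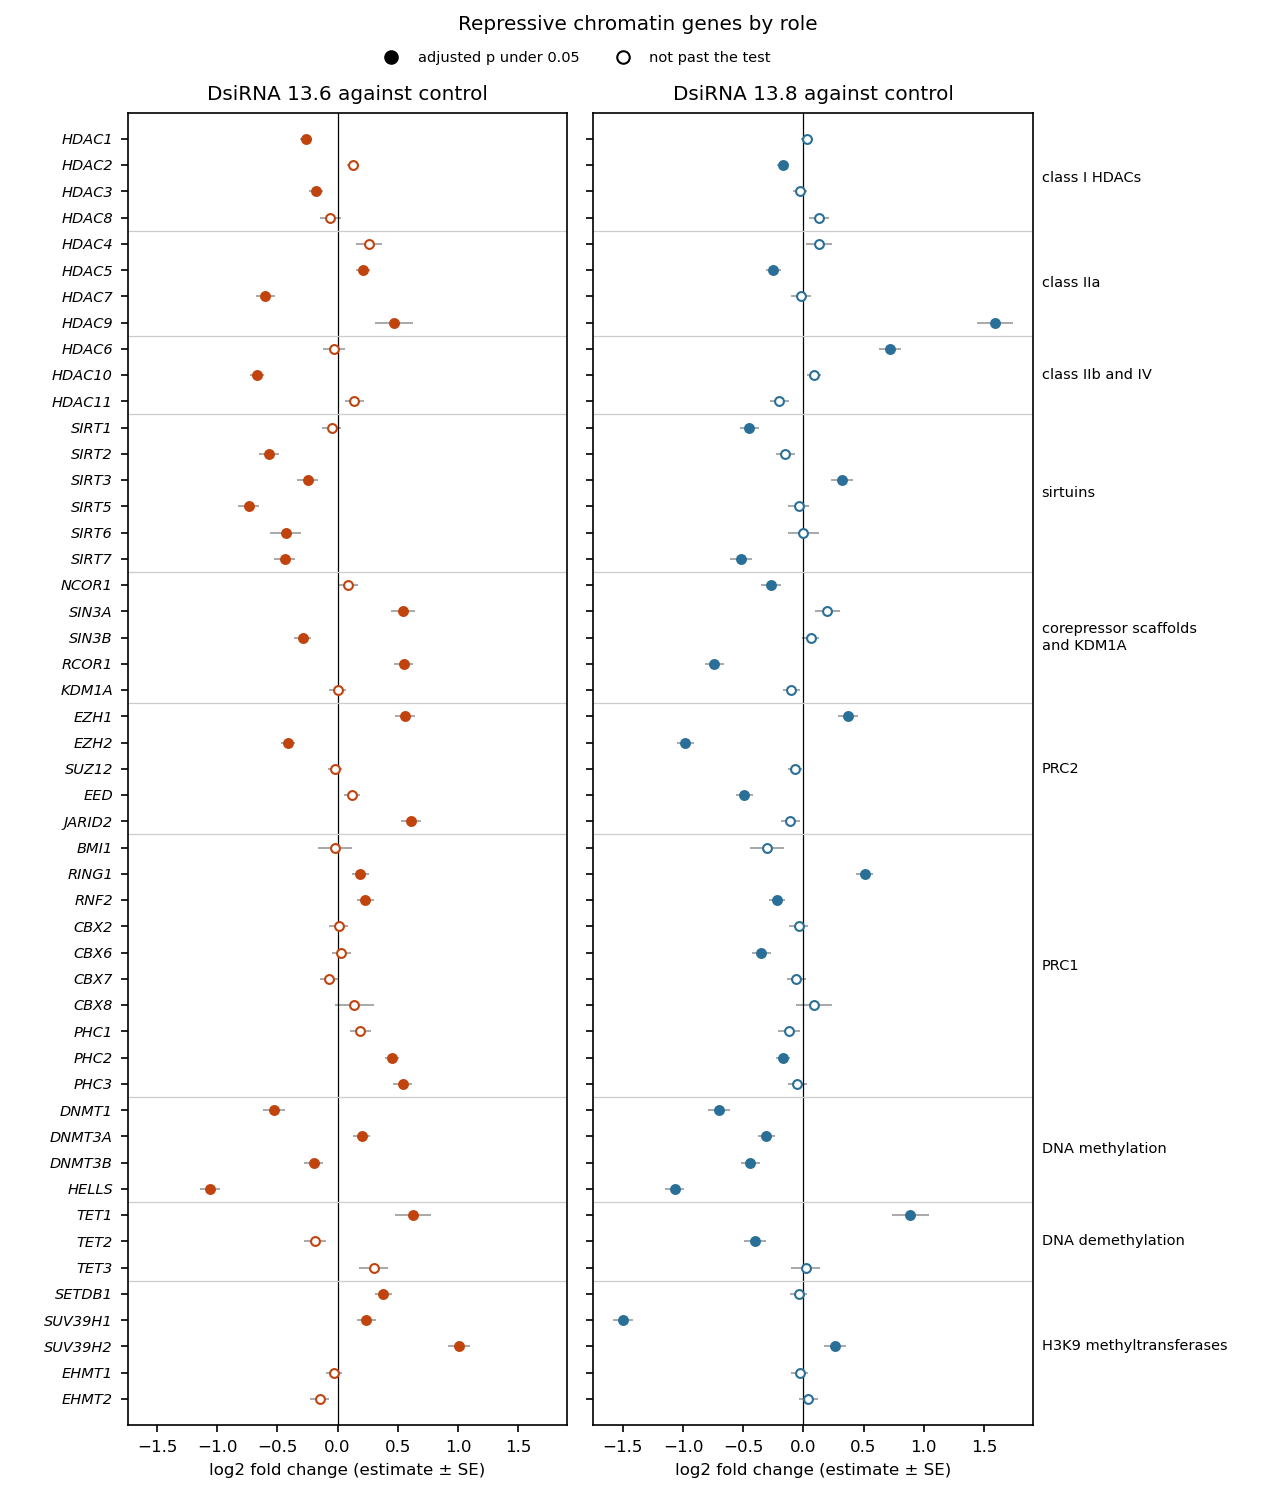
Log2 fold change of each of the 49 genes against control with DsiRNA 13.6 (left) and 13.8 (right), ordered by role (points, estimates; bars, SE; filled, adjusted p under 0.05). HELLS lies near −1.06 in both panels, while SUV39H1 lies at 0.24 on the left and −1.5 on the right.

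The 4 genes listed under DNA methylation are the methyltransferases DNMT1, DNMT3A and DNMT3B and the remodeller HELLS. Of these, 3 fell and 1 rose with 13.6 (median −0.37), and 4 fell with 13.8 (median −0.57), beside 25% and 27.9% of all genes that fell. HELLS, a chromatin remodeller needed for DNA methylation of repeats, had 32.5, 29.1 and 31.5 CPM with 13.6 and 32.0, 28.0 and 32.5 CPM with 13.8, against 59.8, 68.9 and 64.8 CPM in control. No knockdown library reached the lowest control, and the libraries of the 2 DsiRNAs overlapped. HELLS fell by 1.06 ± 0.08 with 13.6 (edgeR quasi-likelihood, adjusted p = 2.5e-07) and by 1.07 ± 0.08 with 13.8 (edgeR quasi-likelihood, adjusted p = 1.4e-07). The difference between the 2 DsiRNAs was 0.01 ± 0.08, not past the test.

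DNMT1, which copies methylation onto new DNA strands, had 127, 123 and 119.6 CPM with 13.6 and 121, 101 and 106 CPM with 13.8, against 180.3, 198 and 157 CPM in control. All 6 knockdown libraries lay below all 3 controls. DNMT1 fell by 0.53 ± 0.09 with 13.6 (edgeR quasi-likelihood, adjusted p = 0.00022) and by 0.70 ± 0.09 with 13.8 (edgeR quasi-likelihood, adjusted p = 1.5e-05). Of the de novo enzymes, which methylate unmarked sites, DNMT3B stood at −0.20 ± 0.08 with 13.6 and −0.44 ± 0.08 with 13.8. Its call with 13.6 was lost without any single library but control replicate 3 (−0.14 without control replicate 2, −0.21 without control replicate 1, −0.18 to −0.22 without a 13.6 library, −0.20 without a 13.8 library). It was also lost with no filter (−0.19) or with only the groups compared in the fit (−0.19).

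DNMT3A, the other de novo enzyme, split. It had 49.8, 46.8 and 49.2 CPM with 13.6 and 35.9, 32.4 and 33.9 CPM with 13.8, against 42.3, 44.4 and 39.9 CPM in control. The 13.6 libraries all lay above the controls and the 13.8 libraries all below. The changes were 0.20 ± 0.07 with 13.6 and −0.31 ± 0.07 with 13.8, and the difference between them was 0.51 ± 0.07 (edgeR quasi-likelihood, adjusted p = 2.2e-05). The call with 13.6 was lost without control replicate 3 (0.17), 13.6 replicate 1 (0.19) or 13.6 replicate 3 (0.19), and with library totals in place of TMM (0.17).

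TET1, which starts the removal of DNA methylation, was higher in all knockdown libraries. It had 10.8, 8.43 and 9.52 CPM with 13.6 and 13.3, 10.5 and 10.7 CPM with 13.8, against 7.14, 6.58 and 4.82 CPM in control, with no overlap between knockdown and control libraries. It rose by 0.63 ± 0.15 with 13.6 (edgeR quasi-likelihood, adjusted p = 0.004) and by 0.89 ± 0.15 with 13.8 (edgeR quasi-likelihood, adjusted p = 0.00024). Its relatives did otherwise: TET2 was at −0.19 ± 0.09 with 13.6, not past the test, and fell by 0.40 ± 0.09 with 13.8, and TET3 was at 0.30 ± 0.12 and 0.02, not past the test with either. TET2 passed with 13.6 without control replicate 3 (−0.28), and TET3 without control replicate 1 (0.46) or 13.6 replicate 3 (0.39) or by DESeq2 (0.30).

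PRC2 did not change as a unit: its catalytic subunits moved in opposite directions. EZH2, the catalytic subunit of dividing cells, had 59.0, 59.0 and 63.7 CPM with 13.6 and 43.2, 39.4 and 40.0 CPM with 13.8, against 77.9, 84.7 and 78.8 CPM in control. The 3 groups did not overlap, with 13.8 lowest. EZH2 fell by 0.41 ± 0.06 with 13.6 (edgeR quasi-likelihood, adjusted p = 0.00016) and by 0.98 ± 0.07 with 13.8 (edgeR quasi-likelihood, adjusted p = 4.8e-08), which left 0.508 of the control level. EZH1, the catalytic subunit typical of resting cells, had 46.3, 44.5 and 41.7 CPM with 13.6 and 39.4, 38.7 and 37.5 CPM with 13.8, against 30.6, 32.8 and 26.3 CPM in control. All 6 knockdown libraries lay above all 3 controls, and EZH1 rose by 0.56 ± 0.08 with 13.6 and by 0.37 ± 0.08 with 13.8.

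The ratio of EZH1 to EZH2, both per length, was therefore 0.482 ± 0.045 with 13.6 and 0.623 ± 0.023 with 13.8, against 0.245 ± 0.022 in control (SD, n = 3). EZH2 was the higher of the pair in every library. This ratio and the others given below were chosen after the members' values were seen and carry no test.

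The core subunits that EZH1 and EZH2 share behaved differently from both. SUZ12 stood at −0.02 with 13.6 and −0.07 with 13.8, not past the test with either, and its pseudogene SUZ12P1 has its own entry with 320 to 419 reads, so some SUZ12 reads may be split between them. EED, which binds the methylated histone, had 31.9, 30.7 and 32.8 CPM with 13.6 and 21.8, 21.0 and 19.7 CPM with 13.8, against 28.6, 30.4 and 28.5 CPM in control. The 13.6 libraries lay just above the controls and the 13.8 libraries well below. The change with 13.8 passed the test, at −0.49 ± 0.07, beside 0.12 ± 0.07 with 13.6, and the difference between the DsiRNAs was 0.61 ± 0.07 (edgeR quasi-likelihood, adjusted p = 5.5e-06).

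JARID2, an accessory subunit that guides PRC2 to its sites, had 273, 268 and 277 CPM with 13.6 and 189, 149 and 159.5 CPM with 13.8, against 182, 189.9 and 164 CPM in control. The 13.6 libraries stood clear of the rest, while the 13.8 and control libraries overlapped. JARID2 rose by 0.61 ± 0.08 with 13.6 (edgeR quasi-likelihood, adjusted p = 5.3e-05), was at −0.11 ± 0.08 with 13.8, and differed between the DsiRNAs by 0.72 ± 0.08 (edgeR quasi-likelihood, adjusted p = 8e-06). Without 13.8 replicate 1 the change with 13.8 passed the test (−0.21).

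Of 10 PRC1 genes, 4 rose and 0 fell with 13.6 (median 0.17), while 1 rose and 3 fell with 13.8 (median −0.09). With each DsiRNA 40% of them were called, below the 49.9% and 55.5% of all genes. The polyhomeotic subunits, which cluster PRC1 on chromatin, gave 2 of the 4 rises with 13.6. PHC2 had 275.5, 287 and 277 CPM with 13.6 and 183, 179 and 182 CPM with 13.8, against 193, 219.8 and 200.3 CPM in control. PHC3 had 56.5, 52.1 and 53.4 CPM with 13.6 and 38.5, 33.2 and 36.2 CPM with 13.8, against 41.3, 34.7 and 35.3 CPM in control. In both genes the 13.6 libraries were highest with no overlap. PHC2 rose by 0.45 ± 0.06 and PHC3 by 0.54 ± 0.08 with 13.6, and the DsiRNAs differed by 0.63 ± 0.06 in PHC2 and 0.59 ± 0.08 in PHC3. With 13.8, PHC3 was at −0.05, and PHC2 fell by 0.17 ± 0.06, a call lost without control replicate 2 (−0.12), 13.8 replicate 2 (−0.17) or 13.8 replicate 3 (−0.18), or with only the groups compared in the fit (−0.16).

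The ubiquitin ligases of PRC1 did not follow each other. RING1 had 60.3, 68.0 and 67.7 CPM with 13.6 and 77.2, 81.4 and 85.1 CPM with 13.8, against 54.4, 57.7 and 59.4 CPM in control, with both knockdown groups above control. It rose by 0.51 ± 0.07 with 13.8 (edgeR quasi-likelihood, adjusted p = 3.1e-05) and by 0.19 ± 0.07 with 13.6. The RING1 call with 13.6 did not hold when control replicate 1 (0.16), control replicate 2 (0.20), 13.6 replicate 2 (0.17) or 13.6 replicate 3 (0.17) was left out, nor with library totals in place of TMM (0.16). Its paralogue RNF2 was at 0.23 ± 0.07 with 13.6 and −0.22 ± 0.07 with 13.8, calls that were lost without control replicate 1 (0.18) or 13.6 replicate 3 (0.22) for 13.6 and without control replicate 3 (−0.17), 13.8 replicate 2 (−0.22) or 13.8 replicate 3 (−0.18) for 13.8, which was also lost with only the groups compared in the fit (−0.21). Among the chromodomain subunits, which read the PRC2 mark, CBX6 fell by 0.35 ± 0.08 with 13.8, and CBX2, CBX7 and CBX8 passed the test with neither DsiRNA, lying between −0.07 and 0.14. BMI1, a partner of the ligases, was at −0.02 with 13.6 and −0.30 ± 0.14 with 13.8, and PHC1 was at 0.19 ± 0.09 and −0.12, not past the test with either. PHC1 passed with 13.6 without control replicate 1 (0.25) and with 13.8 without control replicate 3 (−0.21).

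**Figure D3:**
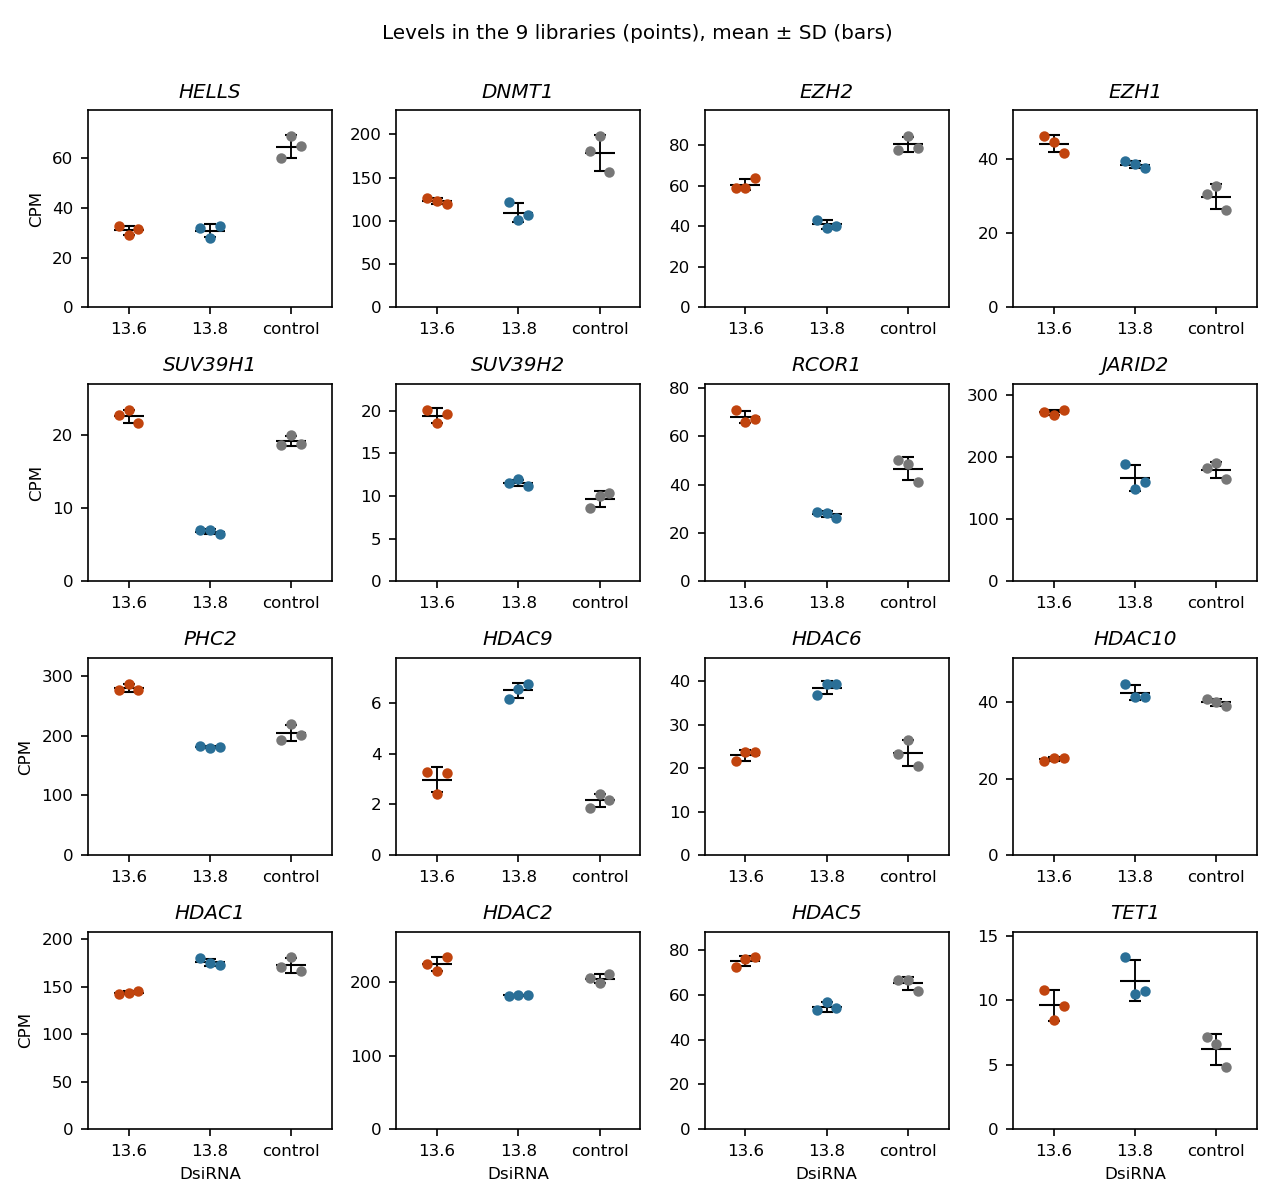
Level in each library, in CPM, of 16 of the 49 genes (points, libraries; bars, mean ± SD, n = 3), with DsiRNA 13.6, DsiRNA 13.8 and control from left to right. HELLS and EZH2 lie lower in all 6 knockdown libraries than in any control, and SUV39H1 at 6.42 to 6.98 CPM with 13.8 lies far below the other libraries.

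Of the 49 genes, SUV39H1 and RCOR1 differed most between the DsiRNAs. SUV39H1, a heterochromatin methyltransferase, had 22.7, 23.5 and 21.7 CPM with 13.6 and 6.96, 6.98 and 6.42 CPM with 13.8, against 18.7, 20.0 and 18.8 CPM in control. The 13.8 libraries stood far below all others. SUV39H1 fell by 1.5 ± 0.08 with 13.8 (edgeR quasi-likelihood, adjusted p = 7e-09) and was higher with 13.6 than with 13.8 by 1.74 ± 0.08 (edgeR quasi-likelihood, adjusted p = 1.7e-09). Its change with 13.6 was 0.24 ± 0.08, a call lost without control replicate 1 (0.22) or 13.6 replicate 2 (0.21).

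SUV39H2, the paralogue of SUV39H1, had 20.1, 18.5 and 19.6 CPM with 13.6 and 11.5, 12 and 11.2 CPM with 13.8, against 8.59, 10.0 and 10.3 CPM in control. Both knockdown groups lay above control, and 13.6 above 13.8. SUV39H2 rose by 1.01 ± 0.09 with 13.6 (edgeR quasi-likelihood, adjusted p = 1.1e-06), a 2.01-fold level, and by 0.26 ± 0.09 with 13.8, a call lost without control replicate 1 (0.18) or 13.8 replicate 2 (0.23), or with no filter (0.25). Per length, the ratio of SUV39H2 to SUV39H1 was 0.838 ± 0.063 with 13.6 and 1.66 ± 0.049 with 13.8, against 0.491 ± 0.045 in control. SUV39H2 was thus the higher of the pair with 13.8 and the lower of the pair with 13.6 and in control.

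SETDB1, which silences retroelements, rose by 0.38 ± 0.07 with 13.6 and was at −0.04 with 13.8, not past the test. EHMT1 and EHMT2, which place the lighter H3K9 marks in euchromatin, passed the test with neither DsiRNA, at −0.03 and −0.15 with 13.6 and −0.03 and 0.04 with 13.8. EHMT2 passed with 13.6 without control replicate 3 (−0.21).

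**Figure D4:**
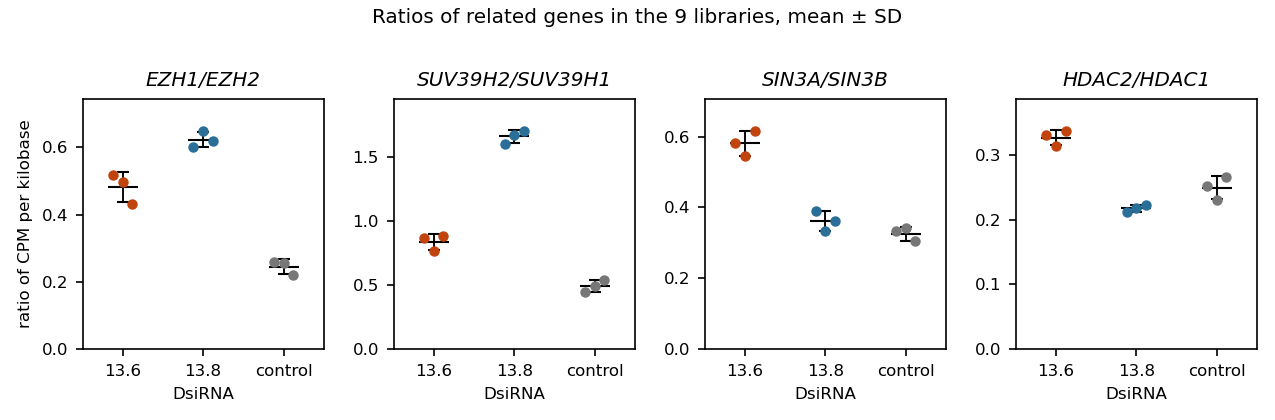
Ratio of the levels per length (CPM per kb) of 2 related genes, for the pairs EZH1/EZH2, SUV39H2/SUV39H1, SIN3A/SIN3B and HDAC2/HDAC1 (points, libraries; bars, mean ± SD, n = 3), with DsiRNA 13.6, DsiRNA 13.8 and control from left to right. EZH1/EZH2 is 0.22 to 0.259 in control and 0.432 to 0.648 in the knockdown libraries, and SUV39H2/SUV39H1 exceeds 1 with 13.8 only.

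Of the deacetylases reported as partners of TBX3, HDAC1, HDAC2, HDAC3 and HDAC5, none changed by as much as 0.5 on the log2 scale with either DsiRNA. HDAC1 had 142, 144 and 146 CPM with 13.6 and 179.8, 174.5 and 172 CPM with 13.8, against 170.4, 181 and 166 CPM in control, and was lower with 13.6 only. It fell by 0.26 ± 0.05 with 13.6 (edgeR quasi-likelihood, adjusted p = 0.0014), was at 0.03 ± 0.05 with 13.8, and differed between the DsiRNAs by −0.29 ± 0.05 (edgeR quasi-likelihood, adjusted p = 0.00046). HDAC2, its close paralogue, had 225, 215 and 234 CPM with 13.6 and 182, 183 and 183 CPM with 13.8, against 206, 199 and 211 CPM in control. The 13.6 libraries lay above control and the 13.8 libraries below, by 0.13 ± 0.05, not past the test, and by −0.17 ± 0.05. The HDAC2 call with 13.8 was lost without 13.8 replicate 2 (−0.17) or with only the groups compared in the fit (−0.16), and HDAC2 passed with 13.6 without control replicate 3 (0.15) or by DESeq2 (0.13). The ratio of HDAC2 to HDAC1 per length was 0.327 ± 0.012 with 13.6 and 0.218 ± 0.0057 with 13.8, against 0.25 ± 0.018 in control. Its size rests on the merged exon lengths, 10.15 kb for HDAC2 and 2.12 kb for HDAC1, and by CPM HDAC2 was the higher in every library.

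HDAC3, the deacetylase of the NCOR complexes, had 47.1, 50.3 and 48.7 CPM with 13.6 and 54.7, 54.6 and 53.6 CPM with 13.8, against 53.8, 57.9 and 54.3 CPM in control. The 13.6 libraries lay below all others, and the 13.8 and control libraries overlapped. HDAC3 was at −0.18 ± 0.06 with 13.6, a call lost without control replicate 2 (−0.15), 13.6 replicate 1 (−0.16) or 13.6 replicate 3 (−0.19), or with no filter (−0.18), and at −0.03 ± 0.06 with 13.8. HDAC5, a class IIa deacetylase that shuttles between nucleus and cytoplasm, had 72.6, 76.3 and 76.8 CPM with 13.6 and 53.1, 57.1 and 54.1 CPM with 13.8, against 66.9, 66.8 and 61.8 CPM in control. The groups did not overlap, with 13.6 highest and 13.8 lowest. The changes were 0.21 ± 0.06 with 13.6 and −0.25 ± 0.06 with 13.8, and the DsiRNAs differed by 0.46 ± 0.06 (edgeR quasi-likelihood, adjusted p = 2.4e-05). The HDAC5 call with 13.6 was lost without 13.6 replicate 3 (0.19). HDAC8 and HDAC4 passed the test with neither DsiRNA, at −0.06 and 0.26 with 13.6 and 0.13 each with 13.8, and HDAC4 passed with 13.6 without control replicate 1 (0.36) or with no filter (0.27).

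The larger changes among deacetylases were in class II genes, and each was far larger with 1 DsiRNA. HDAC9, a class IIa gene of low level, had 3.30, 2.41 and 3.23 CPM with 13.6 and 6.17, 6.57 and 6.77 CPM with 13.8, against 1.88, 2.42 and 2.18 CPM in control. The 13.8 libraries stood above all others, and the 13.6 and control libraries overlapped. HDAC9 rose by 1.59 ± 0.15 with 13.8 (edgeR quasi-likelihood, adjusted p = 1.4e-06), a 3.02-fold level. It was at 0.47 ± 0.16 with 13.6, a call lost without control replicate 1 (0.37), 13.6 replicate 1 (0.39) or 13.6 replicate 3 (0.40), by limma-voom (0.46), or with only the groups compared in the fit (0.48). HDAC6, the cytoplasmic tubulin deacetylase, had 21.6, 23.7 and 23.8 CPM with 13.6 and 36.8, 39.3 and 39.5 CPM with 13.8, against 23.2, 26.6 and 20.6 CPM in control. Again the 13.8 libraries alone stood apart. HDAC6 rose by 0.72 ± 0.09 with 13.8 (edgeR quasi-likelihood, adjusted p = 1.5e-05) and was at −0.03 ± 0.09 with 13.6.

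HDAC7, of class IIa, and HDAC10, which deacetylates polyamines, showed the reverse, with low levels in the 13.6 libraries alone. HDAC7 had 15.3, 16 and 15.5 CPM with 13.6 and 24.0, 24.3 and 21.7 CPM with 13.8, against 24.8, 24.1 and 22.3 CPM in control. HDAC10 had 24.6, 25.4 and 25.4 CPM with 13.6 and 44.8, 41.4 and 41.2 CPM with 13.8, against 40.7, 40.0 and 38.9 CPM in control. They fell with 13.6 by 0.60 ± 0.08 and 0.67 ± 0.06 and stood at −0.02 and 0.09 with 13.8, not past the test. The DsiRNAs differed by −0.58 ± 0.08 in HDAC7 (edgeR quasi-likelihood, adjusted p = 2.2e-05) and by −0.76 ± 0.06 in HDAC10 (edgeR quasi-likelihood, adjusted p = 3.5e-07). HDAC11, the class IV gene, was at 0.14 with 13.6 and −0.20 with 13.8, not past the test with either, and differed between the DsiRNAs by 0.34 ± 0.08. HDAC11 passed with 13.8 without control replicate 1 (−0.25) or 13.8 replicate 2 (−0.25), by DESeq2 (−0.20) or with its size factors (−0.20).

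Of 6 sirtuins, the NAD-dependent deacylases, 5 fell and 0 rose with 13.6 (median −0.43), beside 25% of all genes that fell. With 13.8, 2 fell and 1 rose (median −0.10), beside 27.9% and 27.5% of all genes. SIRT7, the nucleolar sirtuin, had 22.5, 23.3 and 23 CPM with 13.6 and 19.4, 21.6 and 23.7 CPM with 13.8, against 30.7, 27.7 and 34.8 CPM in control, so that all 6 knockdown libraries lay below the controls. It fell with both, by 0.44 ± 0.09 with 13.6 (edgeR quasi-likelihood, adjusted p = 0.0017) and by 0.52 ± 0.09 with 13.8 (edgeR quasi-likelihood, adjusted p = 0.00036). SIRT5, a mitochondrial desuccinylase, had 20.3, 18 and 17.2 CPM with 13.6 and 31.8, 28.8 and 29.2 CPM with 13.8, against 33.1, 27.7 and 31.5 CPM in control, and only the 13.6 libraries stood apart. SIRT5 fell by 0.74 ± 0.09 with 13.6, was at −0.04 with 13.8, and differed between the DsiRNAs by −0.70 ± 0.09 (edgeR quasi-likelihood, adjusted p = 1.5e-05).

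SIRT3, the main mitochondrial deacetylase, had 11.1, 13.4 and 12.4 CPM with 13.6 and 18.7, 19.0 and 17.1 CPM with 13.8, against 15.8, 14.1 and 14 CPM in control, with the 3 groups apart. It was at −0.25 ± 0.09 with 13.6 and 0.32 ± 0.09 with 13.8. The call with 13.6 was lost without control replicate 1 (−0.20), 13.6 replicate 1 (−0.19) or 13.6 replicate 3 (−0.26), with no filter (−0.24) or with only the groups compared in the fit (−0.24), and the DsiRNAs differed by −0.57 ± 0.09. SIRT1, a nuclear deacetylase, fell by 0.45 ± 0.08 with 13.8 and was at −0.05 with 13.6. SIRT2, largely cytoplasmic, and SIRT6, a chromatin deacetylase, fell with 13.6 by 0.57 ± 0.08 and 0.43 ± 0.13 and were at −0.15 and 0.00 with 13.8. SIRT2 passed with 13.8 without control replicate 1 (−0.23).

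Among the corepressor scaffolds, RCOR1, the core of the CoREST complex, had 71.0, 66.0 and 67.1 CPM with 13.6 and 28.8, 28.4 and 26.2 CPM with 13.8, against 50, 48.6 and 41.2 CPM in control. The 13.6 libraries lay above and the 13.8 libraries below every control. RCOR1 rose by 0.55 ± 0.08 with 13.6 (edgeR quasi-likelihood, adjusted p = 7.3e-05) and fell by 0.74 ± 0.08 with 13.8 (edgeR quasi-likelihood, adjusted p = 3.9e-06). Between the DsiRNAs it differed by 1.29 ± 0.08, a 2.44-fold level (edgeR quasi-likelihood, adjusted p = 2e-08), and its mean change with both was −0.10, not past the test. KDM1A, the demethylase that RCOR1 holds, passed the test with neither, at 0.00 ± 0.07 with 13.6 and −0.10 ± 0.07 with 13.8.

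SIN3A, the scaffold of the SIN3 complexes, rose by 0.54 ± 0.10 with 13.6 and was at 0.20 ± 0.10 with 13.8, and its paralogue SIN3B fell by 0.29 ± 0.07 with 13.6 and was at 0.06 with 13.8. Per length the ratio of SIN3A to SIN3B was 0.581 ± 0.035 with 13.6 and 0.362 ± 0.028 with 13.8, against 0.326 ± 0.02 in control. NCOR1, the nuclear receptor corepressor that holds HDAC3, fell by 0.27 ± 0.08 with 13.8 and was at 0.09 with 13.6.

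Set against each other, the DsiRNAs differed in 34 of the 49 genes, which is 69.4%, beside 61.1% of all genes tested, with 21 higher with 13.6 (30.9% of all genes were) and 13 lower (30.2% of all genes were). Over these genes the median difference of 13.6 from 13.8 was 0.17, beside −0.02 for all genes tested. By role, 4 of 5 PRC2 genes were higher with 13.6 than with 13.8 and 0 lower (median 0.57), and 4 of 6 sirtuins were lower and 1 higher (median −0.42). The PRC2 count included EZH1 at 0.20 ± 0.08, a call that did not hold when 13.6 replicate 1 (0.17), 13.6 replicate 2 (0.19) or any 13.8 library (0.18 to 0.21) was left out, with library totals (0.15) or when a mean of 50 reads was required (0.17), and the sirtuin count included SIRT6 at −0.42 ± 0.13, lost without 13.8 replicate 3 (−0.31).

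Stretches of sequence are shown for the 5 genes whose 3′ UTR holds the word AACTGTC, since this group includes RCOR1 and SUV39H1, which were the genes furthest apart between the DsiRNAs. In a ranking of 12176 words of 7 bases over 12366 genes, AACTGTC had the lowest t statistic with 13.8 (−12.69), with 3′ UTR length and GC content as covariates, and GCTCTGT the lowest with 13.6 (−15.03). The stretches below are from GENCODE transcripts on GRCh38, 5′ to 3′ on the gene's strand, with the word in capitals. They lie at chr14:102727164-102727188 (plus strand) for RCOR1, chrX:48708990-48709012 (plus) for SUV39H1, chr1:150964384-150964408 (plus) for SETDB1, chr17:42702355-42702379 (minus) for EZH1 and chr6:13614210-13614234 (plus) for SIRT5.
RCOR1: atttactgcAACTGTCgttggacac
SUV39H1: aataaaatgAACTGTCgactgaa
SETDB1: cccttcttgAACTGTCgtttcctca
EZH1: agggcacaaAACTGTCtcaatgaga
SIRT5: ggctggagcAACTGTCatataagct
With 13.8 these 5 genes were at −0.74 (RCOR1), −1.5 (SUV39H1), −0.04 (SETDB1), 0.37 (EZH1) and −0.04 (SIRT5), so that holders of the word moved in both directions or did not pass. Their median was −0.04, beside −0.07 in the members without it, while over all searched genes holders had a median of −0.20 and others 0.02. They make up 10.2% of the 49 genes, beside 11.1% of the genes searched. GCTCTGT was in 9 of the 49 (18.4%, beside 21.0% of the genes searched), namely HDAC6, NCOR1, CBX7, CBX8, PHC1, PHC3, DNMT3A, DNMT3B and TET3. Their median change with 13.6 was 0.14, beside −0.01 in the other members, and over all searched genes −0.09 for holders and 0.03 for others. Both words were picked for the lowest t statistic on these same changes, so the lower medians of holders over all searched genes follow from that choice. A word in a 3′ UTR describes the gene, and its part in any change was not tested.

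Promoter sequences, from 250 bases before to 50 after the start, were found for 45 of the 49 genes in RefSeq on GRCh38.p14. A gene counted as a holder if any of its promoters matched, while shares of all promoters are per single promoter, an unlike measure. The core letters of a T-box site, AGGTGTG, read on both strands, were in 4 of 45 genes (8.89%), beside 5.09% of tested genes. Counted per promoter, 4.59% of all promoters held them. The 4 genes were HDAC6, DNMT3A, TET1 and EHMT2, and they did not move alike. TET1 was at 0.63 with 13.6 and 0.89 with 13.8, and DNMT3A at 0.20 and −0.31. HDAC6 was at −0.03 with 13.6, not past the test, and 0.72 with 13.8. EHMT2 was at −0.15 and 0.04, not past the test with either. Core letters of an E2F site, TTCCCGC or TTGGCGC on either strand, were in 11 of 45 genes (24.4%), beside 17.4% of tested genes. The share per single promoter was 9.23% of all promoters. Of these 11, HELLS and EZH2 fell with both DsiRNAs, HDAC9 and HDAC6 rose with 13.8 (1.59 and 0.72) and SIN3A rose with 13.6 (0.54). RNF2 was at 0.23 with 13.6 and −0.22 with 13.8, SIRT6 fell with 13.6 (−0.43), and SUZ12, KDM1A, HDAC4 and TET3 passed the test with neither DsiRNA. Stretches of 29 bases are shown for TET1, which rose with both DsiRNAs, and for 4 holders of E2F letters that moved in both directions, HELLS and EZH2 lower and HDAC9 and SIN3A higher, with the letters searched, or their reverse complement, in capitals. They lie at chr10:68600044-68600072 (plus) for TET1, chr10:94545770-94545798 and chr10:94545701-94545729 (plus) for HELLS, chr7:148884272-148884300 (minus) for EZH2, chr7:18086614-18086642 (plus) for HDAC9 and chr15:75451806-75451834 (minus) for SIN3A.
TET1 T-box letters: ctgctgcaaagAGGTGTGgttcctgagga
HELLS first E2F letters: atgacaggattTTCCCGCgaaggagaagc
HELLS second E2F letters: aaccgcaagctGCGCCAAatctcgcgcag
EZH2 E2F letters: ggctgccgcgtTTGGCGCtcggtccggtc
HDAC9 E2F letters: gcgcccaggtgTTCCCGCgtccgtaatcc
SIN3A E2F letters: agggggaagggGCGGGAAaatcataagac
A match is a run of letters, and binding was not measured.

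Genes of DNA replication moved beside HELLS, EZH2 and DNMT1. Of 34 S phase and E2F target genes, none of them among the 49, 26 fell and 2 rose with 13.6 (median −0.44), and 32 fell and 0 rose with 13.8 (median −0.96), beside 25% and 27.9% of all genes that fell. The count higher with 13.6 was 1 in place of 2 without any one of control replicates 1 and 2, 13.6 replicates 1 and 2 and 13.8 replicate 2, or with library totals. E2F1, the transcription factor of S phase entry, was at −1.24 ± 0.07 with 13.6, and with 13.8 CHAF1B, a histone chaperone of replication, was at −1.58 ± 0.09. The summed level of the 34 was 2214.4 to 2287.2 CPM with 13.6 and 1538.9 to 1631.7 CPM with 13.8, against 2874 to 3154 CPM in control. In bulk RNA, fewer cells in S phase and less RNA per cell cannot be told apart, and the part of these genes in the falls of HELLS, EZH2 and DNMT1 was not tested.

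Partners of these enzymes moved in both directions too, but among polycomb accessory genes more fell than rose. Among 27 NuRD, SIN3, CoREST and NCOR partners, 6 rose and 7 fell with 13.6 (median −0.03), and 3 rose and 4 fell with 13.8 (median −0.09), where 8 fell without control replicate 3. That is 48.1% and 25.9% called, beside 49.9% and 55.5% of all genes. HMG20B, a CoREST subunit, fell by 1.88 ± 0.13 with 13.6, and MTA1, of NuRD, fell by 1.19 ± 0.08 with 13.6. With 13.8 HMG20B and MTA1 were at 0.22 and 0.16, not past the test. GATAD2A, also of NuRD, fell by 0.97 ± 0.07 with 13.8 but rose by 0.29 ± 0.07 with 13.6. GPS2, of the NCOR complexes, fell by 0.75 ± 0.06 with 13.6 and by 0.54 ± 0.06 with 13.8. A list of 25 polycomb accessory genes held subunits of PRC2 and PRC1 but also BAP1, ASXL1 and ASXL2, which are not subunits of either. Of the 25, 3 rose (1 without 13.6 replicate 1) and 10 fell with 13.6 (median −0.16), and 2 rose and 11 fell with 13.8 (median −0.12). That is 52% called with each, beside 49.9% and 55.5% of all genes. By direction, 24.9% of all genes rose and 25% fell with 13.6, and 27.5% rose and 27.9% fell with 13.8. PHF1, which recruits PRC2, fell by 0.87 ± 0.07 with 13.6, SCML1, a polycomb family gene, by 2.18 ± 0.07 with 13.8, and PCGF6, of a variant PRC1, by 0.46 ± 0.07 and 0.80 ± 0.07.

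**Figure D5:**
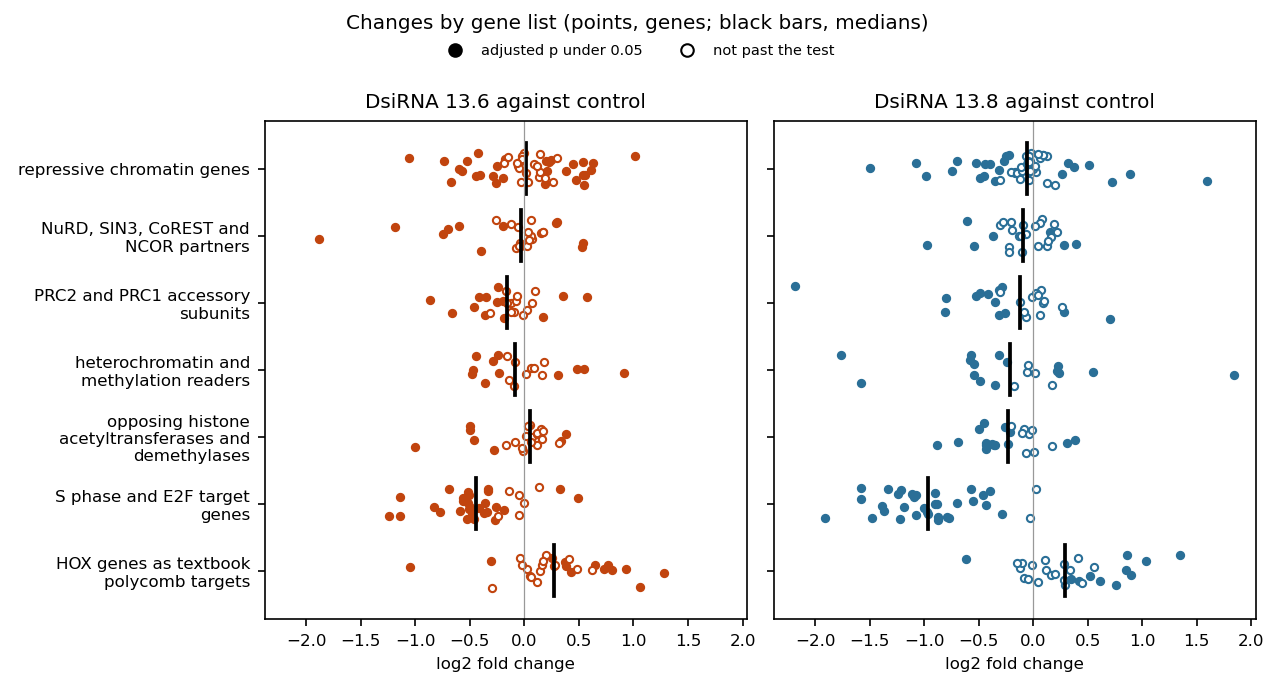
Log2 fold change of the 49 genes and of 6 further gene lists against control with DsiRNA 13.6 (left) and 13.8 (right) (points, genes; black bars, medians; filled, adjusted p under 0.05). The S phase list has medians of −0.44 and −0.96, and HOX genes 0.27 and 0.29, while the 49 genes lie around 0.01 and −0.06.

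Genes that polycomb and DNA methylation are known to silence were read out as well. Of 39 HOX genes 29 passed the filter, so the counts do not describe all of them, and of those 12 rose and 2 fell with 13.6 (median 0.27) and 10 rose and 1 fell with 13.8 (median 0.29). That is 48.3% and 37.9% called, beside 49.9% and 55.5% of all genes, of which 24.9% and 27.5% rose. With 13.6 1 fell in place of 2 without control replicate 2, 13.6 replicate 1 or 13.6 replicate 2. HOXA3 had 17.8, 15.4 and 15.5 CPM with 13.6 and 13.2, 12.5 and 10.5 CPM with 13.8, against 6.52, 6.92 and 6.68 CPM in control, and rose by 1.28 ± 0.11 and 0.85 ± 0.11. HOXC6 went the other way with 13.6, at 6.30, 5.43 and 6.05 CPM. It had 15.9, 16.8 and 16.8 CPM with 13.8 and 12.5, 12.5 and 12 CPM in control. HOXC6 thus fell by 1.05 ± 0.09 with 13.6 and rose by 0.42 ± 0.08 with 13.8. The HOX genes summed to 287.4 to 291 CPM with 13.6 and 281.1 to 285.6 CPM with 13.8, against 246.2 to 262.4 CPM in control. Of 20 germline genes, which DNA methylation silences in most tissues, 4 passed the filter, and their whole list summed to 2.16 to 2.49 CPM with 13.6, 2.26 to 3.07 CPM with 13.8 and 2.08 to 3.18 CPM in control. No binding, histone mark or DNA methylation was measured, so a link between these genes and the 49 was not tested.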

How the data were processed

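RNA from 9 libraries of 501mel cells was sequenced with a kit that keeps strand information. The tools named in the submitters' processing notes are STAR, HTSeq, cutadapt, FastQC and DESeq2, and the genome build is hg19. Tool versions, gene annotation and counting strand were not given in the sources used here. Raw counts per gene symbol were deposited by the authors, and a second deposited table of normalized values was not used. Of 25398 entries, 16 that repeat both the symbol and the counts of another were left out. The 28 with names turned into dates were kept, and entered the fit where they passed the filter.

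Tests used edgeR 4.0.16 in R 4.3.3. The filter was filterByExpr with a minimum of 10 reads, 14731 genes holding 99.97% of reads passed it, and scaling was by TMM. A robust quasi-likelihood model with 1 mean per group was fitted to all 9 libraries (6 residual degrees of freedom), two-sided, with Benjamini-Hochberg adjustment over all genes and a threshold of 0.05. SEs are the log2 change divided by the square root of F. Alternatives were DESeq2 1.42.0, limma-voom (limma 3.58.1), DESeq2 size factors, library totals, no filter, a mean of at least 50 reads, only the groups compared, a replicate block, and each library left out. Exon lengths and 3′ UTRs are from GENCODE v29 on GRCh38, used for lengths and sequence letters only.

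The labels call the replicates biological without saying that they are separate cultures, so p-values measure the spread between these libraries. The members and gene lists were chosen with earlier results of these data known. Values in each library are given for members called against control with both DsiRNAs and changed by at least 0.5 (log2) with either, or called between the DsiRNAs with a difference of at least 0.5, and for HDAC1, HDAC2, HDAC3 and HDAC5. From each further list, at most 4 genes with the smallest adjusted p per comparison are named.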

Additional observations from a re-analysis of the deposited data

Results flagged for a closer look

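For 7 of the 49 genes the change against control was called with both DsiRNAs but in opposite directions, and the difference between the DsiRNAs itself passed edgeR's quasi-likelihood test. The differences of 13.6 from 13.8, on the log2 scale, were 1.74 for SUV39H1, 1.29 for RCOR1, 0.63 for PHC2, 0.51 for DNMT3A, 0.46 for HDAC5, 0.46 for RNF2 and −0.57 for SIRT3. Thus 6 of the 7 were higher with 13.6 and SIRT3 was higher with 13.8. Of all genes tested, 49.9% were called with 13.6, 55.5% with 13.8 and 61.1% between the DsiRNAs. How many of them had opposite calls was not counted, so whether 7 of 49 is many cannot be said. All 7 kept their call between the DsiRNAs in every alternative run. RCOR1 kept its call against control with each DsiRNA in every alternative run, while each of the other 6 lost at least 1 of its calls against control when some library was left out, as given beside each gene above.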

How the results depend on the processing

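No change of TBX3 or a member that was called in the main fit or in an alternative reversed direction in that alternative. Each count of called members stayed within 1.5 times its reported value. The balance of higher and lower counts did change: with 13.6 it was 15 and 14 in the main fit and 13 and 14 with library totals. With both DsiRNAs it was 11 and 13 in the main fit and 12 and 11 without control replicate 1. With 1 library left out, the counts higher and lower ran from 11 to 15 and 11 to 16 with 13.6, 6 to 7 and 15 to 19 with 13.8, 9 to 12 and 11 to 18 with both, and 20 to 24 and 10 to 14 between the DsiRNAs. Over TBX3, the members and 4 comparisons, leaving out a library lost 74 calls and gained 32, and the other alternatives lost 22 and gained 30. Same-numbered libraries of different groups deviated with correlations of −0.179 to 0.187, and differently numbered ones with −0.248 to 0.187. With 3 libraries per group these values cannot tell whether the numbers pair the samples, and the main fit used no pairing. With a replicate block 19 members were higher and 15 lower with 13.6, and 8 and 18 with 13.8. The block called 8010, 8803 and 9581 of all genes with 13.6, 13.8 and between them, against 7357, 8169 and 8995 without it. The block lost no call of a member against control with either DsiRNA, and gained HDAC2 (0.13), HDAC4 (0.27), PHC1 (0.19), TET2 (−0.19) and TET3 (0.30) with 13.6 and HDAC11 (−0.20) and SIN3A (0.20) with 13.8. Further lists with few called genes moved more, such as HOX genes lower with 13.6 (2, or 1 without control replicate 2, 13.6 replicate 1 or 13.6 replicate 2).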

Other observations

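Genes that read or anchor silent chromatin, and the enzymes that act against the silencing ones, were measured as well. Of 20 heterochromatin and methylation readers, 4 rose and 7 fell with 13.6 (median −0.09), and 5 rose and 10 fell with 13.8 (median −0.21). That is 55% and 75% called, beside 49.9% and 55.5% of all genes tested. By direction, 24.9% of all genes rose and 25% fell with 13.6, and 27.5% rose and 27.9% fell with 13.8. The counts were 4 lower with 13.6 without 13.6 replicate 2, and 3 or 2 higher with 13.8 without control replicate 3 or 13.8 replicate 3. CBX1, a heterochromatin protein that binds methylated H3K9, had 66.6, 68.3 and 72.5 CPM with 13.6 and 135.5, 131 and 129 CPM with 13.8, against 39.9, 38 and 32.5 CPM in control, and rose by 0.91 ± 0.08 and 1.84 ± 0.08. LMNB1, a lamina protein that anchors heterochromatin, had 94.1, 93 and 93.8 CPM with 13.6 and 29.5, 26 and 26.7 CPM with 13.8, against 96.1, 93.2 and 89.6 CPM in control. The lamin B receptor LBR had 91.3, 90.4 and 97 CPM with 13.6 and 30.5, 26.5 and 25.3 CPM with 13.8, against 77.7, 86.2 and 82.4 CPM in control. LMNB1 and LBR were low in the 13.8 libraries alone, where they fell by 1.76 ± 0.06 and 1.58 ± 0.08. LMNB2, another lamina gene, fell with both DsiRNAs, by 0.48 ± 0.05 with 13.6 and by 0.35 ± 0.05 with 13.8.

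The 23 genes listed as opposing silencing were acetyltransferases, demethylases, the methyltransferases KMT2A, KMT2B, KMT2C, KMT2D, SETD1A and SETD1B, and TDG. Of these 23, 2 rose and 5 fell with 13.6 (median 0.05), and 2 rose and 13 fell with 13.8 (median −0.23). The falls with 13.8 included KMT2A, KMT2B, KMT2D, SETD1A, SETD1B and TDG. That is 30.4% and 65.2% called, beside 49.9% and 55.5% of all genes tested. With 13.6, 24.9% of all genes rose and 25% fell, and with 13.8, 27.5% rose and 27.9% fell. Without control replicate 1, 5 rose with 13.6. TDG, a glycosylase that completes DNA demethylation after the TET enzymes, had 39.6, 38.3 and 40.2 CPM with 13.6 and 65.2, 64.9 and 66.1 CPM with 13.8, against 79.6, 74.6 and 81.3 CPM in control. The groups did not overlap, with 13.6 lowest. The related acetyltransferases KAT2A and KAT2B differed in pattern: KAT2A fell by 0.50 ± 0.07 with 13.6 and rose by 0.38 ± 0.07 with 13.8, and KAT2B fell by 0.88 ± 0.08 with 13.8.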
